A study of Sordaria macrospora with 14 samples.

Results

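In Sordaria macrospora, 154 of 9869 gene models were higher in wild-type perithecia than mycelium and low in perithecia of deletion strains Δasm2 and ΔSMAC_03952. Of these, 137 also had a summed count above 3 in Δspt3 mycelium, and they are the members described here. Sordaria macrospora is a self-fertile filamentous ascomycete, and its perithecia are flask-shaped fruiting bodies that grow out of the mycelium, protect the developing asci and eject the ascospores. A perithecium joins several cell types, among them the pigmented wall, the sterile filaments of its interior and the ascus-forming hyphae. Forming it is known to need many regulators, found through mutants whose sexual development stops early or gives sterile fruiting bodies.

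The members were chosen on measured values. CPM, read counts scaled to an equal total per library, were computed on raw library totals, and a gene had to have a mean of at least 10 CPM in wild-type perithecia. Its lower perithecial value had to be at least 3 times its higher value in wild-type mycelium. Its highest value in the 4 perithecia libraries of Δasm2 and ΔSMAC_03952 could be at most 50% of its lower value in wild-type perithecia. Its summed count in Δspt3 mycelium had to be above 3. Of 7474 genes at the first limit, 232 also met the fold over mycelium, 154 of these met the limit in the mutants, and 137 the last limit. The higher level in wild-type perithecia and the lower level in mutant perithecia are therefore part of the choice, and they are given below as a description without tests.

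The strains compared were deletion strains of asm2, SMAC_03952 and spt3 and the wild type. Perithecia were sampled from Δasm2, ΔSMAC_03952 and the wild type, and sexual mycelium from Δasm2, ΔSMAC_03952, Δspt3 and the wild type, with 2 independent biological replicates in each of the 7 groups. All cultures were grown on corn meal medium for 6 days at 25 °C, the mycelium in liquid and the perithecia on solid medium. Perithecia were fixed in ethanol for 10 min and scraped off, so the tissues also differ in culture form and harvest. The library text in the labels speaks of microdissected RNA beside total mycelial RNA, while the samples are labelled perithecia or mycelium; they are taken here as labelled. The gene name spt3 is shared with a subunit of the yeast SAGA coactivator complex. The sources used here do not say how many clones stand behind a deletion strain. No names or products were available for the identifiers, so members are called by identifier and no role is given to them.

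Totals lay between 6383079 counts, in ΔSMAC_03952 perithecia replicate 1, and 24029990 counts, in wild-type mycelium replicate 1. The libraries of Δspt3 held 8358 and 8433 genes at 1 CPM or more, against 8924 to 9193 in the other 12. The transcript SMAC_03952 itself stood between 21.3 and 45.7 CPM in the 4 libraries of its deletion strain and between 108 and 275 CPM in the other 10, so part of the signal remained. Levels from here on are CPM on scaled library sizes. All 137 members were among the 9499 genes tested, because the rule itself sets a high level in wild-type perithecia.

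The members were of very different abundance. In wild-type perithecia their means ran from 10.5 to 1676 CPM with a median of 133 CPM, and in wild-type mycelium from 1.06 to 206 CPM with a median of 19.7 CPM. Together they took 0.681% and 0.587% of the counts of the Δasm2 perithecia libraries and 0.262% and 0.289% of those of ΔSMAC_03952 perithecia, against 3.69% and 3.90% in wild-type perithecia. In mycelium their share was 0.250% and 0.262% in Δasm2, 0.271% and 0.307% in ΔSMAC_03952, and 0.330% and 0.373% in Δspt3, against 0.547% and 0.471% in the wild type. Every wild-type mycelium library thus lay above every mycelium library of a deletion strain. In bulk RNA of this kind, fewer cells of a type and less RNA per cell cannot be told apart.

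**Figure D1:**
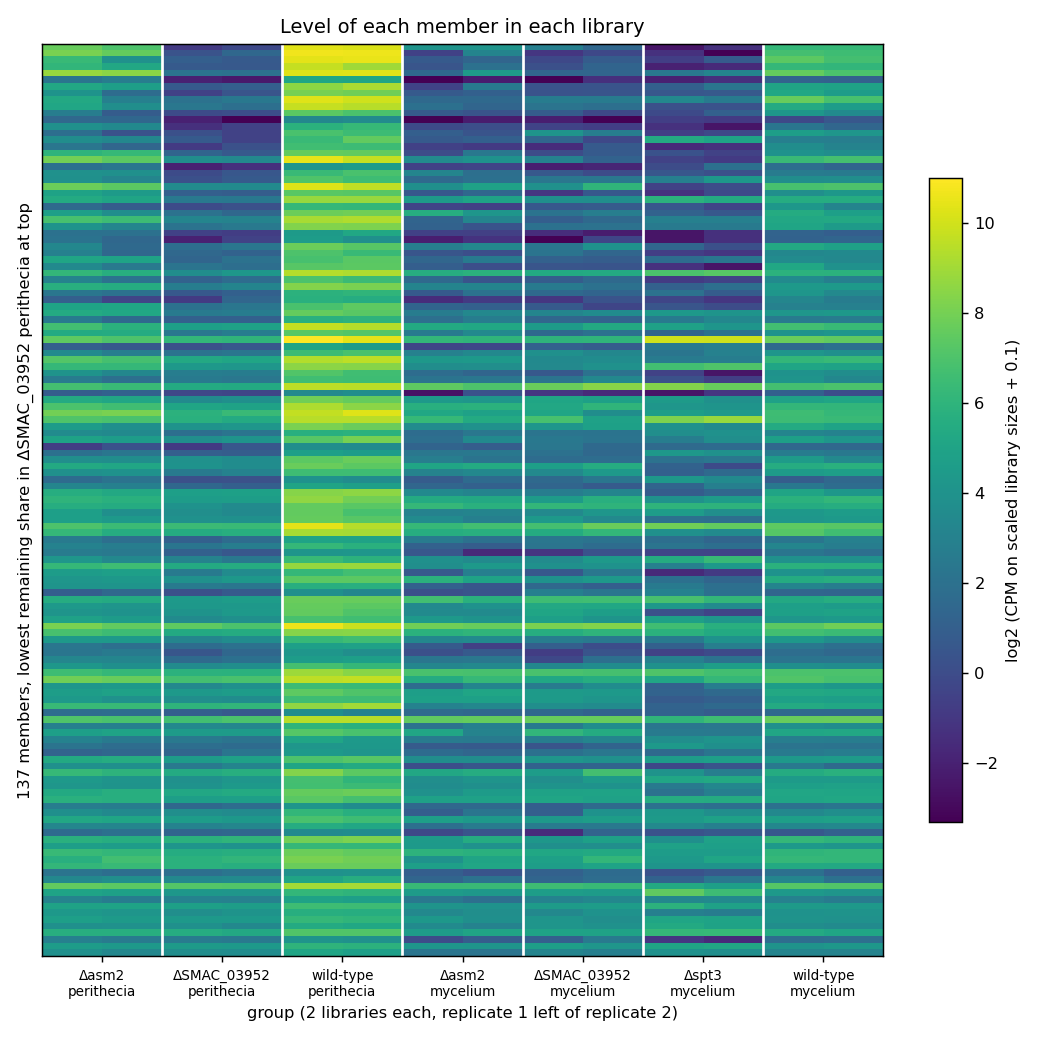
Each row is 1 of the 137 members and each column 1 library, coloured by log2 of CPM plus 0.1, with groups separated by white lines and rows ordered by the share that remained in ΔSMAC_03952 perithecia (lowest at the top). Wild-type perithecia are the brightest pair of columns by the choice of members. In the upper rows the ΔSMAC_03952 perithecia and the mycelium of the 3 deletion strains are darker than wild-type mycelium.

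The members nearest to the limits show how the choice cuts a continuous range. SMAC_02469 and SMAC_01974 were just inside the fold limit, at 3.02 times the higher mycelium value each, and SMAC_07424 and SMAC_03933 just outside, at 2.95 and 2.94 times. SMAC_02878 and SMAC_08159 were just inside the limit in the mutants, at 49.7% and 49.5% of the lower wild-type value, and SMAC_02682 and SMAC_00044 just outside, at 50.6% and 51.2%. The ratio of wild-type perithecia to wild-type mycelium had a median of 6.41 over the members and reached 23.5 in SMAC_05680 and 19.0 in SMAC_05124. SMAC_05680 had 855 and 695 CPM in wild-type perithecia, against 42.5 and 23.5 CPM in wild-type mycelium. SMAC_05124 had 115 and 174 CPM in wild-type perithecia, against 7.68 and 7.51 CPM in wild-type mycelium. In both genes the perithecia libraries lay far above the mycelium libraries, as the rule requires.

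The 6 members most abundant in wild-type perithecia by CPM were SMAC_03692, SMAC_07759, SMAC_08033, SMAC_05779, SMAC_07669 and SMAC_05177. Per kilobase of gene model the order changes: SMAC_03692 stood at 1800 CPM per kb, next to SMAC_09240, which is not among the 6, at 1798. Of the 6, SMAC_05177 followed at 1639, SMAC_08033 at 1602, SMAC_07669 at 1162, SMAC_05779 at 608 and SMAC_07759 at 601 CPM per kb. Members outside the 6 lay between SMAC_07669 and SMAC_05779, such as SMAC_05680 at 1033 CPM per kb. These 6 did not share a pattern in the other groups.

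SMAC_03692 had 175 and 126 CPM in Δasm2 perithecia and 70.0 and 65.3 CPM in ΔSMAC_03952 perithecia, against 2027 and 1326 CPM in wild-type perithecia. In mycelium it had 71.0 and 66.0 CPM in Δasm2, 64.0 and 66.6 CPM in ΔSMAC_03952, and 994 and 950 CPM in Δspt3, against 208 and 183 CPM in the wild type. Its Δspt3 libraries lay above all other mycelium libraries, while those of the other mutants lay below the wild type, with no overlap. Against wild-type mycelium it rose in Δspt3 by 2.31 on the log2 scale (SE of 0.26, adjusted p = 1.12e-05 by edgeR) and fell in Δasm2 and ΔSMAC_03952 by 1.51 and 1.58 on the log2 scale (adjusted p = 0.00445 and 0.0047 by edgeR). The calls in Δasm2 and ΔSMAC_03952 ended without wild-type mycelium replicate 1 (adjusted p = 0.0576 and 0.054).

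SMAC_07759 kept 237 CPM in Δasm2 perithecia and 1.92 CPM in ΔSMAC_03952 perithecia, against 1608 CPM in wild-type perithecia. In mycelium its libraries had 0.580 and 8.68 CPM in Δasm2, 0.387 and 0.754 CPM in ΔSMAC_03952, and 0.304 and 0 CPM in Δspt3, against 104 and 93.9 CPM in the wild type. The highest mutant mycelium library, at 8.68 CPM, was far below the lower wild-type one. In Δasm2 it fell by 4.51 on the log2 scale (SE of 0.79, adjusted p = 0.00548 by edgeR), but the Δasm2 replicates were far apart, and the log2 ratio was -3.54 without Δasm2 replicate 1 and -7.38 without replicate 2.

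SMAC_08033 and SMAC_05779 also lost most of their signal in the mycelium of all 3 deletion strains. SMAC_08033 had 1.55 and 2.42 CPM in Δasm2 mycelium, 0.774 and 1.68 CPM in ΔSMAC_03952 mycelium and 0.531 and 1.64 CPM in Δspt3 mycelium, against 167 and 105 CPM in wild-type mycelium. SMAC_05779 had 3.03 and 22.8 CPM in Δasm2 mycelium, 2.58 and 2.5 CPM in ΔSMAC_03952 mycelium and 5.39 and 8.97 CPM in Δspt3 mycelium, against 196 and 124 CPM in wild-type mycelium. SMAC_05779 fell in mycelium by 3.66 on the log2 scale in Δasm2, 5.98 in ΔSMAC_03952 and 4.48 in Δspt3 (adjusted p = 0.00559, 0.00143 and 0.000111 by edgeR), and its log2 ratio in Δasm2 was -2.85 without Δasm2 replicate 1 and -5.72 without replicate 2. In perithecia the pair parted: SMAC_08033 kept 3.39% of the wild-type level in Δasm2, with replicates at 79.0 and 15.2 CPM, and SMAC_05779 kept 31.7%, while ΔSMAC_03952 kept 0.125% and 0.339%.

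SMAC_07669 had 200 and 125 CPM in Δasm2 perithecia and 0.434 and 0.795 CPM in ΔSMAC_03952 perithecia, against 1299 and 1146 CPM in wild-type perithecia. The ΔSMAC_03952 values rest on 3 and 8 counts, the lowest remaining share of any member at 0.0503%. In mycelium it fell by 2.19 in Δasm2 and 4.02 in ΔSMAC_03952 on the log2 scale (adjusted p = 0.00548 and 0.000571 by edgeR), and the call in Δasm2 ended without Δasm2 replicate 1 (adjusted p = 0.0636). SMAC_05177 differed from the other 5. In mycelium it had 240 and 204 CPM in Δasm2 and 273 and 319 CPM in ΔSMAC_03952, against 164 and 238 CPM in the wild type. The Δasm2 libraries overlapped those of the wild type, and neither difference passed the test (adjusted p = 0.846 and 0.272 by edgeR). Its Δspt3 mycelium libraries, at 96.3 and 51.6 CPM, lay below both wild-type ones (log2 ratio -1.44, adjusted p = 0.00391 by edgeR).

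**Figure D2:**
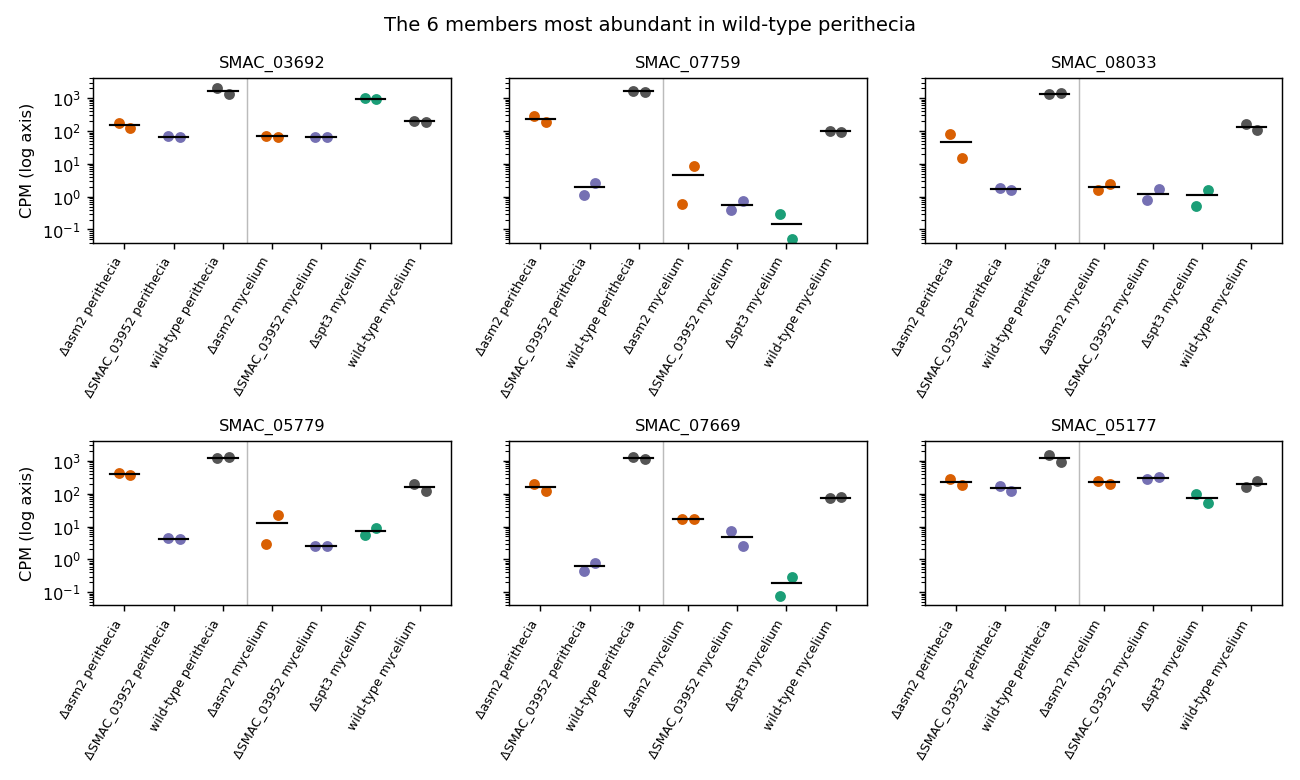
CPM on scaled library sizes (log axis) of the 6 most abundant members in the 7 groups. Points are the 2 libraries of a group, black bars their means, and a library with 0 counts is drawn at 0.05 CPM. SMAC_03692 is high in Δspt3 mycelium, at 994 and 950 CPM, SMAC_05177 is lowest in Δspt3 mycelium, at 96.3 and 51.6 CPM, and the other 4 are low in the mycelium of every deletion strain.

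The loss in mutant perithecia is described here on the same libraries that chose the members, and its depth differed between the 2 strains. The members kept a median of 18.8% of the wild-type perithecial level in Δasm2, with a range from 2.12% to 44.4%, and a median of 7.76% in ΔSMAC_03952, with a range from 0.0503% to 41.6%. Under 5% remained for 12 members in Δasm2 and for 47 in ΔSMAC_03952. The members with the least left in Δasm2 were SMAC_09240, at 2.12% in Δasm2 and 0.409% in ΔSMAC_03952, and SMAC_07131, at 2.19% and 0.776% in the same strains. SMAC_09240 had 40.3 and 7.52 CPM in Δasm2 perithecia and 4.05 and 5.17 CPM in ΔSMAC_03952 perithecia, against 1270 and 984 CPM in wild-type perithecia. SMAC_07131 had 3.43 and 1.10 CPM in Δasm2 perithecia and 1.01 and 0.596 CPM in ΔSMAC_03952 perithecia, against 117 and 90.7 CPM in wild-type perithecia. The Δasm2 replicates of both genes differed more from each other than those of ΔSMAC_03952.

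The mutants can be set against each other, but the rule chose the members on the same 4 perithecia libraries, holding both groups under the same upper limit. The counts that follow are therefore a description, and nothing is read from their distance to the shares over all genes, which were not chosen in this way. Δasm2 perithecia had the higher mean for 123 of 137 members and ΔSMAC_03952 perithecia for 14. By edgeR's quasi-likelihood test with Benjamini-Hochberg adjustment over all genes, 47 members (34.3%) were higher in Δasm2 than in ΔSMAC_03952 perithecia, against 3.88% of all genes tested. None was lower, against 0.611% of all genes, and none had an unadjusted p under 0.05 in that direction or was lower by DESeq2, which called 58 higher. The median log2 fold change was 1.01 over the members and 0.03 over all genes tested. The number called higher was 30 without Δasm2 perithecia replicate 1, where 153 of all genes were called in either direction, against 427 in the full fit. It was 24 without ΔSMAC_03952 perithecia replicate 1 (106 of all genes) and also 24 without replicate 2 (90 of all genes). When nothing but the 4 perithecia libraries of these mutants was fitted it was 75, and 1867 of the 9499 genes were called.

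SMAC_07669 had the largest difference, 249-fold (log2 ratio 7.96 with an SE of 0.55). SMAC_07759 followed with 280 and 194 CPM in Δasm2 perithecia, against 1.16 and 2.68 CPM in ΔSMAC_03952 perithecia (log2 ratio 6.88 with an SE of 0.89, and 7.65 without ΔSMAC_03952 replicate 2). For SMAC_05779, with 439 and 362 CPM in Δasm2 perithecia and 4.48 and 4.07 CPM in ΔSMAC_03952 perithecia, the log2 fold change was 6.55 (SE 0.75). In these 3 genes the Δasm2 libraries lay far above those of ΔSMAC_03952, as a description on libraries that the rule also used.

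**Figure D3:**
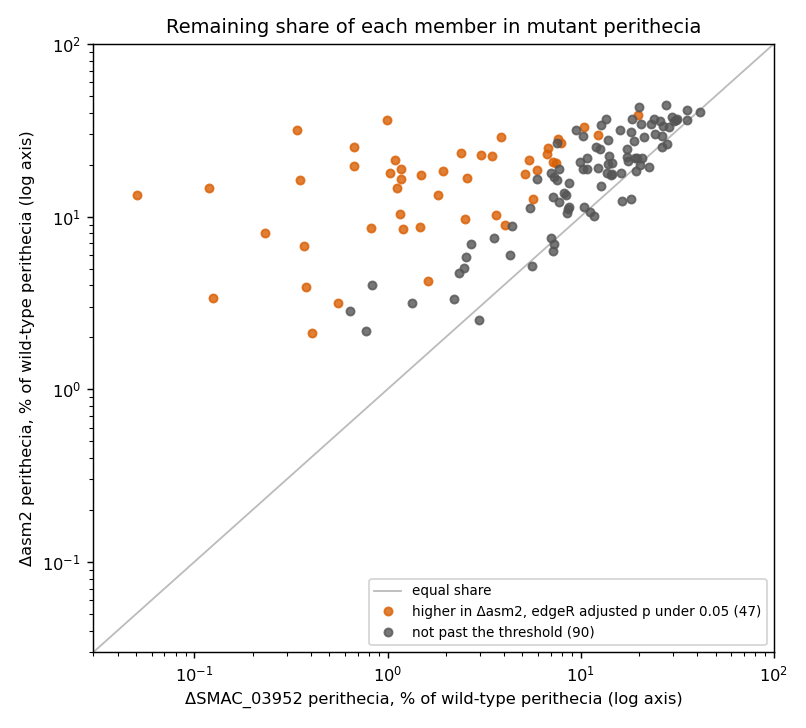
Mean level in Δasm2 perithecia (vertical) against ΔSMAC_03952 perithecia (horizontal), each as percent of the mean in wild-type perithecia, on log axes; each point is 1 member and the grey line marks equal shares. Orange points are the 47 members higher in Δasm2 by edgeR, grey points the other 90. Most points lie above the line, and no member falls below 2.12% in Δasm2, while ΔSMAC_03952 reaches 0.0503%. The rule chose the members on these same libraries.

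Perithecia of a mutant can also be set beside its own mycelium, as a description, since the rule holds the mutant perithecia low. In Δasm2, both perithecia libraries lay above both mycelium libraries for 108 members (78.8%) and below them for 9, against 36.2% and 32.6% of all genes tested. In ΔSMAC_03952 they lay above for 48 (35%) and below for 44 (32.1%), against 36.4% and 36.4% of all genes. The median ratio of perithecia to mycelium was 2.34 in Δasm2, 1.03 in ΔSMAC_03952 and, by the choice of members, 6.41 in the wild type. SMAC_07759 is an example, with 237 CPM in perithecia and 4.63 CPM in mycelium of Δasm2, 1.92 and 0.571 CPM in ΔSMAC_03952, and 1608 and 98.7 CPM in the wild type.

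The mycelium libraries of the deletion strains did not enter the choice, except for the summed count of Δspt3. Setting them against wild-type mycelium asks whether the members also change where perithecia are not the sampled tissue. Each strain was set against the same 2 wild-type mycelium libraries, so these comparisons are not independent of each other. The wild-type mycelium libraries had to be low for a gene to be chosen, which favours higher values in a mutant. The members nevertheless lay mostly lower. In Δasm2 mycelium 60 members (43.8%) fell, against 2.61% of all genes tested that were lower. None rose past the threshold, against 3.45% of all genes, with 1 member higher at an unadjusted p under 0.05 and 0 by DESeq2. The median log2 fold change was -1.19 over the members and -0.02 over all genes. In ΔSMAC_03952 mycelium 59 members (43.1%) fell and 2 rose, against 6.64% and 4.13% of all genes, with medians of -0.93 over the members and 0.03 over all genes.

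These counts depended on single libraries. In Δasm2 mycelium the number called was 24 without Δasm2 mycelium replicate 1 and 23 without wild-type mycelium replicate 1, all of them lower, while 155 and 111 of all genes were called, against 576 in the full fit. Without Δasm2 mycelium replicate 2 it was 52 lower and 1 higher. In ΔSMAC_03952 mycelium it was 27 without wild-type mycelium replicate 1 and 32 when nothing but the 4 libraries concerned was fitted, again all lower, while 92 and 242 of all genes were called, against 1023 in the full fit. ΔSMAC_03952 mycelium fold changes over all genes ran with gene length (Spearman -0.347, across genes).

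The largest decreases in Δasm2 mycelium were those of SMAC_08033 (log2 ratio -6.13 with an SE of 0.74, adjusted p = 0.000712 by edgeR) and SMAC_09240. SMAC_09240 had 2.84 and 2.86 CPM in Δasm2 mycelium, against 199 and 115 CPM in wild-type mycelium (log2 ratio -5.78 with an SE of 0.68, adjusted p = 0.000606 by edgeR). In ΔSMAC_03952 mycelium they were those of SMAC_07759 (log2 ratio -7.29 with an SE of 0.96, adjusted p = 0.0019 by edgeR) and SMAC_08033 (log2 ratio -6.67 with an SE of 0.77, adjusted p = 0.00114 by edgeR). Without ΔSMAC_03952 mycelium replicate 2 these 2 values were -8.00 and -7.48.

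The 2 members that rose in ΔSMAC_03952 mycelium, SMAC_05223 and SMAC_05910, changed by small factors. Both also rose in Δspt3 mycelium, by 1.22 and 1.05 on the log2 scale (adjusted p = 0.0033 and 0.0077 by edgeR). In ΔSMAC_03952 mycelium SMAC_05223 had 212 and 345 CPM, against 103 and 124 CPM in wild-type mycelium (log2 ratio 1.30 with an SE of 0.29, adjusted p = 0.0211 by edgeR). SMAC_05910 had 91.9 and 97.5 CPM, against 39.7 and 48.6 CPM (log2 ratio 1.10 with an SE of 0.29, adjusted p = 0.0347 by edgeR). The replicates of each did not overlap. The call of SMAC_05223 ended without ΔSMAC_03952 replicate 2 or either wild-type mycelium replicate (adjusted p from 0.0604 to 0.193), and that of SMAC_05910 without any 1 of the 4 libraries (adjusted p from 0.0637 to 0.258).

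**Figure D4:**
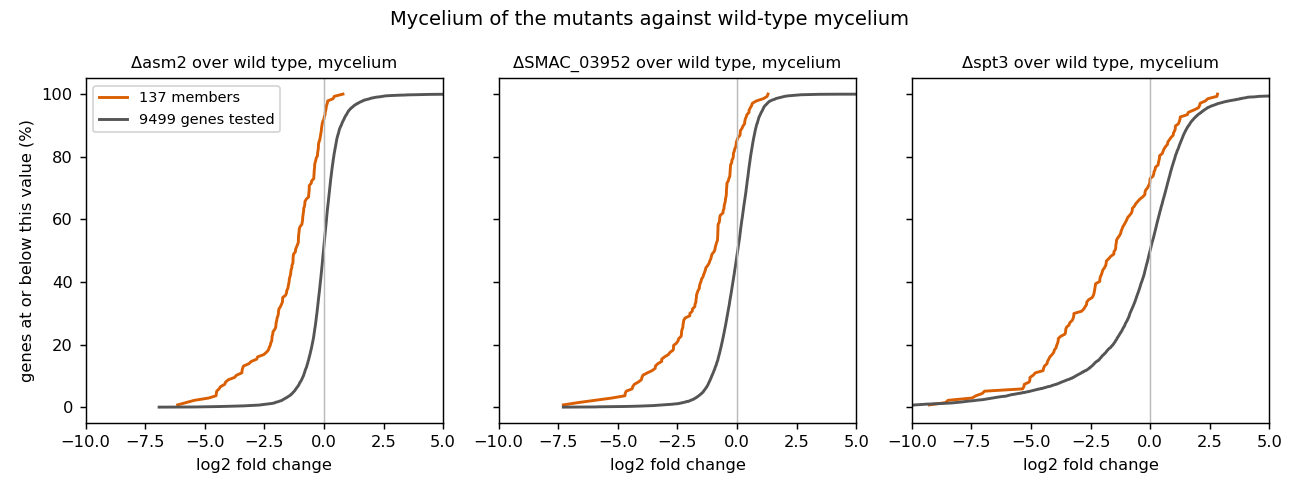
Cumulative share of genes (vertical, percent) by log2 fold change of mutant over wild-type mycelium (horizontal), for the 137 members (orange) and all 9499 genes tested (grey); the axis ends at -10 and 5, and the few values of all genes beyond it are not drawn. The member curves lie left of the grey curves over most of their range in all 3 strains and meet the grey curve at the lowest values of Δspt3, with member medians of -1.19 in Δasm2, -0.93 in ΔSMAC_03952 and -1.46 in Δspt3.

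The perithecium genes that missed the limit in mutant perithecia give other counts in Δasm2 and ΔSMAC_03952 mycelium; the difference between the gene groups was not tested. Those 78 genes met the same limits in the wild type, so their wild-type mycelium values were held low in the same way. In Δasm2 mycelium 60 of 137 members (43.8%) were lower and 0 higher, against 3 of 78 other perithecium genes (3.85%) lower and 11 higher. In ΔSMAC_03952 mycelium 59 members (43.1%) were lower and 2 higher, against 7 of the 78 (8.97%) lower and 17 higher. In Δspt3 mycelium 62.0% of members were lower and 16.8% higher, against 60.3% and 19.2% of the 78. The limit on the summed Δspt3 count was set for the members but not for the 78. The Δspt3 values of these gene groups are therefore given side by side and not compared. The members were more abundant, with median levels of 133 CPM in wild-type perithecia and 19.7 CPM in wild-type mycelium, against 56.8 and 12.4 CPM for the 78 genes. The part of abundance in these shares was not tested. The median log2 fold changes were -1.19 in Δasm2, -0.93 in ΔSMAC_03952 and -1.46 in Δspt3 for the members, against 0.09, 0.26 and -1.52 for the 78 genes.

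The log2 fold changes of the members against the wild type can be set side by side between perithecia and mycelium, as a description across genes. With the change in ΔSMAC_03952 perithecia, Spearman's correlation over the 137 members was 0.73 for ΔSMAC_03952 mycelium and 0.49 for Δspt3 mycelium. With the change in Δasm2 perithecia it was 0.47 for Δasm2 mycelium and 0.39 for Δspt3 mycelium. Over all 9499 genes the values were 0.07 and -0.19 with ΔSMAC_03952 perithecia and 0.25 and -0.20 with Δasm2 perithecia, in the same order. The rule limited the perithecial changes and held wild-type mycelium low, so the members and all genes are not alike in range and the values are not compared.

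The mycelium of Δasm2 and ΔSMAC_03952 were also compared with each other, a contrast with no library in the rule. Few members differed: 5 were higher and 4 lower in Δasm2 mycelium, against 2.60% and 0.863% of all genes tested, or 3.65% and 2.92% of the members. The number called was 4 without Δasm2 replicate 2, 15 without ΔSMAC_03952 replicate 1, 5 without ΔSMAC_03952 replicate 2, and 17 by DESeq2. It was 0 by edgeR when nothing but the 4 libraries concerned was fitted, where 9 members were higher and 9 lower at an unadjusted p under 0.05. A p that misses the threshold does not show that the strains act alike on the other members. The median log2 fold change was -0.08 over the members. In this contrast too the fold changes over all genes ran with gene length (Spearman 0.335, across genes).

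SMAC_07194 had 48.5 and 17.9 CPM in Δasm2 mycelium, against 4.26 and 6.79 CPM in ΔSMAC_03952 mycelium (log2 ratio 2.56 with an SE of 0.48, adjusted p = 0.0127 by edgeR). In wild-type mycelium it had 44.3 and 27.4 CPM, so that its Δasm2 and wild-type libraries overlapped. SMAC_07669 had 16.4 and 16.7 CPM in Δasm2 mycelium, against 7.22 and 2.61 CPM in ΔSMAC_03952 mycelium (log2 ratio 1.83 with an SE of 0.41, adjusted p = 0.0302 by edgeR). Lower in Δasm2, SMAC_07131 had 1.93 and 1.21 CPM in Δasm2 mycelium, against 17.2 and 6.96 CPM in ΔSMAC_03952 mycelium (log2 ratio -2.86 with an SE of 0.55, adjusted p = 0.013 by edgeR). SMAC_00288 had 11.2 and 15.4 CPM in Δasm2 mycelium, against 40.4 and 36.3 CPM in ΔSMAC_03952 mycelium (log2 ratio -1.54 with an SE of 0.27, adjusted p = 0.0096 by edgeR). The replicates of these 4 genes did not overlap between the strains, yet no call held under all removals of 1 library. Without Δasm2 replicate 1 the adjusted p was 0.0922 for SMAC_07194 (log2 fold change 1.63), 0.0814 for SMAC_07669, 0.0566 for SMAC_07131 and 0.0632 for SMAC_00288. It was also 0.0556 for SMAC_07194 and 0.172 for SMAC_07669 (log2 fold change 1.22) without ΔSMAC_03952 replicate 2, and 0.0978 for SMAC_07669 and 0.115 for SMAC_07131 without Δasm2 replicate 2. Without ΔSMAC_03952 replicate 1 the log2 fold changes of SMAC_07669 and SMAC_07131 were 2.63 and -2.12.

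In Δspt3 mycelium most members changed, in both directions. Against wild-type mycelium 85 members (62.0%) fell and 23 (16.8%) rose, against 30.2% and 29.1% of all genes tested, with median log2 fold changes of -1.46 over the members and -0.01 over all genes. The rule removed genes with 3 counts or fewer in Δspt3, 17 of 154, so genes with the lowest counts in this strain are not among the members. Against Δasm2 mycelium 40 members were higher and 44 lower in Δspt3 (29.2% and 32.1%, against 26.1% and 27.4% of all genes). Against ΔSMAC_03952 mycelium 35 were higher and 45 lower (25.5% and 32.8%, against 23.4% and 25.3%), and 19 and 33 when nothing but the 4 libraries concerned was fitted. The shares against these 2 mutants were thus near those of all genes, and the median log2 fold changes over the members were -0.14 and -0.11.

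The largest decreases of members in Δspt3 were those of SMAC_07759 and SMAC_07669. SMAC_07669 had 0.0759 and 0.299 CPM in Δspt3 mycelium, from 1 and 4 counts, against 73.6 and 77.4 CPM in wild-type mycelium, 383-fold lower (log2 ratio -8.58 with an SE of 0.60, adjusted p = 2.39e-07 by edgeR; from -7.97 to -9.80 without 1 Δspt3 library). SMAC_07759 held 4 and 0 counts there (log2 ratio -9.27 with an SE of 1.11, adjusted p = 1.96e-05 by edgeR). Its estimate was -8.30 without Δspt3 replicate 2, and without replicate 1 the fitted -13.47 rests on 0 counts. In both genes each Δspt3 library lay far below each wild-type library.

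Among the members that rose in Δspt3, SMAC_03990 had 183 and 88.5 CPM, against 20.6 and 17.7 CPM in wild-type mycelium (log2 ratio 2.82 with an SE of 0.30, adjusted p = 7.78e-06 by edgeR; 2.17 without Δspt3 replicate 1). SMAC_09871 had 19.7 and 11.4 CPM, against 1.78 and 2.71 CPM (log2 ratio 2.80 with an SE of 0.42, adjusted p = 0.000112 by edgeR). Both Δspt3 libraries of SMAC_03990 also lay above the 71.5 and 63.2 CPM of wild-type perithecia, and those of SMAC_09871 overlapped the 15.6 and 12.2 CPM of wild-type perithecia.

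Set beside the other mutants, Δspt3 mycelium was highest for SMAC_08029 and SMAC_03692. SMAC_08029 had 43.7 and 31.5 CPM in Δspt3 mycelium, against 1.55 and 1.98 CPM in Δasm2 mycelium and 2.58 and 0.754 CPM in ΔSMAC_03952 mycelium. The log2 fold changes of Δspt3 were 4.43 over Δasm2 (SE 0.55, adjusted p = 2.73e-05 by edgeR) and 4.66 over ΔSMAC_03952 (SE 0.56, adjusted p = 2.49e-05 by edgeR; from 3.82 to 5.53 without 1 ΔSMAC_03952 library). SMAC_03692 gave 3.83 and 3.90 in these contrasts (SE 0.28 each, adjusted p = 3.41e-07 and 3.39e-07 by edgeR). In wild-type mycelium SMAC_08029 had 7.20 and 6.83 CPM. Both genes thus lay above the wild type in Δspt3 mycelium and below it in the mycelium of the other mutants.

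In the other direction stood SMAC_07756 and SMAC_07352. SMAC_07756 had 0.607 and 0.897 CPM in Δspt3 mycelium, against 13.7 and 28.6 CPM in Δasm2 mycelium and 14.8 and 65.2 CPM in ΔSMAC_03952 mycelium. Its log2 fold changes were -4.79 over Δasm2 (SE 0.69, adjusted p = 0.000102 by edgeR) and -5.73 over ΔSMAC_03952 (SE 0.70, adjusted p = 2.68e-05 by edgeR; from -4.31 to -6.50 without 1 ΔSMAC_03952 library). SMAC_07352 had 1.06 and 0.673 CPM in Δspt3 mycelium, against 34.1 and 25.6 CPM in ΔSMAC_03952 mycelium (log2 ratio -5.09 with an SE of 0.33, adjusted p = 1.65e-07 by edgeR). Its ΔSMAC_03952 mycelium libraries lay on either side of the 27.9 and 30.1 CPM of wild-type mycelium, while both Δspt3 libraries lay far below. SMAC_07669 was also lower in Δspt3 than in Δasm2 mycelium (log2 ratio -6.39 with an SE of 0.60, adjusted p = 2.78e-06 by edgeR; from -5.77 to -7.61 without 1 Δspt3 library).

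Some members were direct neighbours. How many neighbours other gene sets of this size would hold was not computed, so their number is given as a description. In the order of the RefSeq annotation ASM3387043v1, whose build may differ from the one behind the counts, 131 of 137 members could be placed, and 21 of them lay next to another member, in 1 run of 3 genes and 9 pairs. The run held SMAC_05680, SMAC_05679 and SMAC_05678, and SMAC_05676, also a member, lay beyond 2 genes that were not members. SMAC_05679 had 6.65 and 1.70 CPM in Δasm2 perithecia and 0.868 and 0.993 CPM in ΔSMAC_03952 perithecia, against 169 and 124 CPM in wild-type perithecia. SMAC_05678 had 0.511 and 1.10 CPM in Δasm2 perithecia and 0.434 and 1.39 CPM in ΔSMAC_03952 perithecia, against 13.4 and 12 CPM in wild-type perithecia. Per length, the level in wild-type perithecia was 1033 CPM per kb for SMAC_05680, 218 for SMAC_05679 and 7.42 for SMAC_05678, and all 3 genes were low in both mutants.

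In mycelium the genes of the run differed. SMAC_05680 fell by 3.37 on the log2 scale in Δasm2, 3.04 in ΔSMAC_03952 and 4.91 in Δspt3 (adjusted p = 0.00124, 0.00307 and 5.74e-06 by edgeR). SMAC_05679 fell by 3.43, 3.77 and 3.41 in these strains (adjusted p = 0.00546, 0.00547 and 0.000337 by edgeR). Its call in Δasm2 ended without Δasm2 replicate 1 or wild-type mycelium replicate 1 (adjusted p = 0.0712 and 0.0576), and without Δspt3 replicate 2 its value in Δspt3 was -4.17. SMAC_05678 had 2.32 and 1.76 CPM in Δasm2 mycelium, 5.03 and 2.90 CPM in ΔSMAC_03952 mycelium and 3.04 and 3.06 CPM in Δspt3 mycelium, against 2.75 and 2.71 CPM in wild-type mycelium. None of its differences from wild-type mycelium passed the test (adjusted p from 0.417 to 0.768 by edgeR). The gene before the run, SMAC_05681, had means of 63.6 CPM in Δasm2 perithecia and 52.5 CPM in ΔSMAC_03952 perithecia, against 47.2 CPM in wild-type perithecia. The gene behind it, SMAC_05677, had 2.82 and 7.07 CPM in these mutants, against 4.55 CPM in the wild type. In mycelium SMAC_05677 had means of 70.2 CPM in Δasm2, 88.2 CPM in ΔSMAC_03952 and 5.23 CPM in Δspt3, against 12.9 CPM in the wild type. SMAC_05681 had 78.2, 82.5 and 99.2 CPM in the mycelium of these strains, against 55.9 CPM. These means are given as a description.

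**Figure D5:**
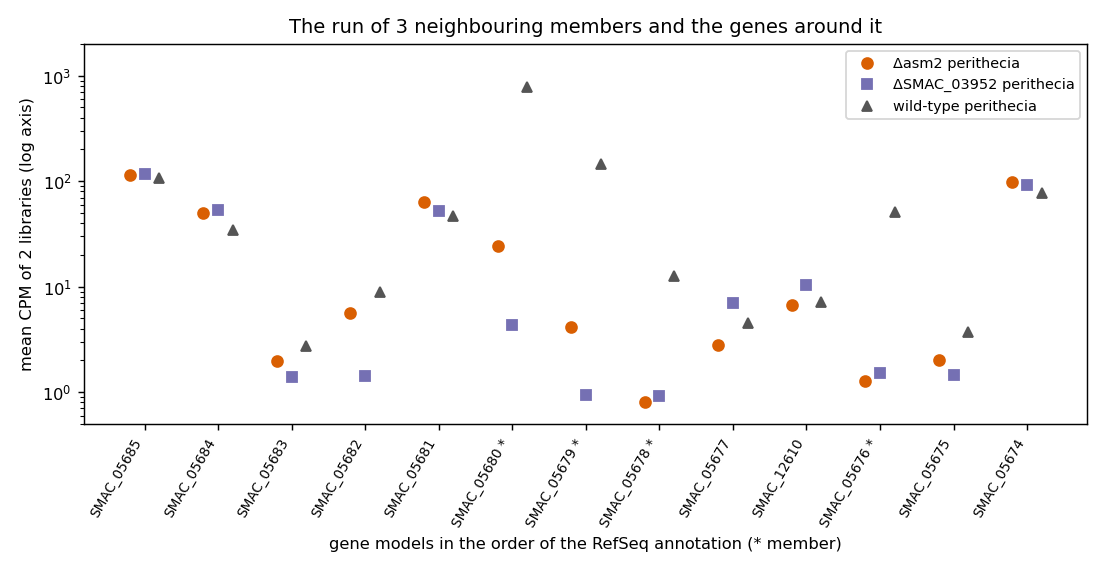
Mean CPM of 2 libraries (log axis) in perithecia of Δasm2, ΔSMAC_03952 and the wild type for the run of 3 members and the 5 genes on each side in annotation order, with all members, SMAC_05676 included, marked by asterisks. Wild-type perithecia stand above both mutants at the 4 marked genes, by the choice of members. They also do so at the unmarked SMAC_05683, SMAC_05682 and SMAC_05675, with wild-type means of 2.76, 8.95 and 3.7 CPM. The other unmarked genes do not show this, and SMAC_05681 has 63.6 CPM in Δasm2, 52.5 CPM in ΔSMAC_03952 and 47.2 CPM in the wild type.

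Of the 9 pairs, the 2 with the most signal in wild-type perithecia were SMAC_07687 with SMAC_07685 and SMAC_05779 with SMAC_05778. SMAC_07687 had 141 and 109 CPM in Δasm2 perithecia and 38.9 and 34.3 CPM in ΔSMAC_03952 perithecia, against 656 and 766 CPM in wild-type perithecia. SMAC_07685, the longest member at 7868 bases, had 245 and 279 CPM in Δasm2 perithecia and 59.6 and 82.8 CPM in ΔSMAC_03952 perithecia, against 821 and 1268 CPM in wild-type perithecia. In both genes the ΔSMAC_03952 libraries were lowest, those of Δasm2 were in between, and no group overlapped another. The second pair was uneven: SMAC_05779 kept 0.339% of its wild-type perithecial level in ΔSMAC_03952, and SMAC_05778 kept 19.7%, with 25.7 and 26.7 CPM there against 158 and 108 CPM in wild-type perithecia. Some other neighbours stood closer together: SMAC_05680 kept 3.14% in Δasm2 and 0.554% in ΔSMAC_03952, and SMAC_05679 kept 2.85% and 0.636% in these strains. SMAC_05678, of the same run, kept more, at 6.34% and 7.18%. SMAC_07687 kept 17.6% and 5.14%, and SMAC_07685 25% and 6.81%. Further pairs were also uneven in ΔSMAC_03952. There SMAC_06781 kept 30.3% and SMAC_06782 0.672%, and SMAC_08656 kept 19.4% and SMAC_08655 1.16%.

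The members had shorter gene models than the genes tested as a whole, with medians of 1605 and 1853 bases, and 88 of 137 lay under the median of all genes tested. Gene length was not used by the rule. With length trends removed, 68 members were lower and 0 higher in Δasm2 mycelium, 66 lower and 2 higher in ΔSMAC_03952 mycelium, and 85 lower and 23 higher in Δspt3 mycelium, each against wild-type mycelium. The share of all genes called with length trends removed is not given here. Nothing about the members is therefore read from the change in these counts.

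The authors' deposited table gives its own fold changes and adjusted p-values, written to 2 decimals. In the authors' deposited table, 76 members were lower and 0 higher in Δasm2 mycelium with an adjusted p written as 0.04 or less, against 410 lower and 484 higher of all 9869 gene models. For ΔSMAC_03952 mycelium the authors' deposited table has 71 members lower and 3 higher, against 1070 and 733 of all gene models. For Δspt3 mycelium the authors' deposited table has 85 members lower and 22 higher, against 3029 and 2653 of all gene models.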

How the data were processed

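RNA-seq of 14 libraries was analysed from 1 deposited table of raw read counts per gene model, per the file headers; the table also holds the length of each gene model. Nothing in the sources used here states the aligner, counting program, strand handling or genome build, so counts of overlapping or near-identical genes are uncertain. The authors' deposited table also holds a mean normalized signal (baseMean), log2 fold changes and adjusted p-values of their own comparisons, made with DESeq2 per the submitters' processing notes; these entered no test. Of 10014 rows, 145 second transcripts without counts were left out, which left 9869 gene models.

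Counts were tested in R 4.3.3 with edgeR 4.0.16: filterByExpr with 7 groups kept 9499 genes, TMM factors ranged from 0.805 to 1.16, and glmQLFit and glmQLFTest were run on 1 model of all 14 libraries with a mean per group. Benjamini-Hochberg adjustment ran over all genes of a comparison, and a call means a value under 0.05 after it. Each SE is the fold change (log2) divided by the square root of F. The method was tested on simulated counts. The 7 tested comparisons are the 6 between mycelium groups and Δasm2 against ΔSMAC_03952 perithecia, whose libraries the rule also used. Named are the 6 members most abundant in wild-type perithecia, per comparison up to 2 called members in each direction with the largest change, no overlap of replicates and a higher group of at least 10 CPM, the members at the limits or extremes of the rule, and the longest runs of neighbours (pairs ranked by summed level, SMAC_05676 and the genes beside the run chosen after their values were seen). The uneven pairs SMAC_06781 with SMAC_06782 and SMAC_08655 with SMAC_08656 were also named after their values were seen. Neighbours come from a RefSeq table that matched 9531 gene models and gave no names. Members, lists and rules were chosen with earlier results of these data known. Planned searches of protein and promoter patterns were not run because no sequences were used here. Alternatives were RLE factors, DESeq2 1.42.0, no filter, fits of only the 4 libraries compared, a replicate block, length trends removed, each library left out, and other limits in the rule. Replicate numbers of different groups share only a number. Libraries are said to be independent biological replicates, per the labels.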

Additional observations from a re-analysis of the deposited data

How the results depend on the processing

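In most of the 7 comparisons the number of members called changed by more than 1.5 times in some fit of fewer libraries. DESeq2 changed it by more than 1.5 times only between Δasm2 and ΔSMAC_03952 mycelium. Members called in Δasm2 against wild-type mycelium numbered 60, and 23 to 53 with 1 library left out. In ΔSMAC_03952 against wild-type mycelium they numbered 61, 27 to 59 with 1 library left out and 32 with only the 4 libraries compared. In Δspt3 the ranges with 1 library left out were 94 to 102 against the wild type, 69 to 76 against Δasm2 and 55 to 71 against ΔSMAC_03952, and the last was 52 with only the 4 libraries compared. In Δasm2 against ΔSMAC_03952 mycelium 9 members were called, 4 to 15 with 1 library left out, 17 by DESeq2 and 0 with only the 4 libraries compared. In perithecia of these strains 47 were called, 24 to 41 with 1 library left out and 75 with only the 4 libraries compared. The cause of these changes was not tested, beyond the smaller number of libraries in the reduced fits. RLE factors, no filter and removal of length trends kept every one of the 7 counts within 1.5 times. The replicate block gave 66, 64, 109, 8, 84, 78 and 45 members in the 7 comparisons, in the order of Δasm2, ΔSMAC_03952 and Δspt3 against the wild type, Δasm2 against ΔSMAC_03952 mycelium, Δspt3 against Δasm2, Δspt3 against ΔSMAC_03952, and the perithecia. Deviations of same-numbered libraries correlated between -0.21 and 0.345 in these 7 comparisons. The genome-wide counts moved more: 576 genes were called in Δasm2 against wild-type mycelium and 933 by DESeq2, and 1023 in ΔSMAC_03952 and 1904 by DESeq2, with 375 and 242 when 4 libraries were fitted. Between Δasm2 and ΔSMAC_03952 they were 329 in mycelium (674 by DESeq2, 36 with 4 libraries) and 427 in perithecia (685 by DESeq2, 1867 with 4 libraries). The rule gave 137 members, 134 with scaled library sizes (127 shared), 198 with a fold limit of 2 and 71 with a limit of 25% in the mutants. Over 70 gene and comparison pairs, 699 refits gave no reversed direction, and 66 lost the call. Low counts limit the deepest losses, since 2 members in ΔSMAC_03952 perithecia and 2 in Δasm2 mycelium had at most 3 counts over both libraries.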
